A study of Mus musculus with 24 samples.

Results

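The genes described here encode proteins of the extracellular matrix and basement membrane, together with the enzymes, inhibitors and receptors that modify collagen. They were taken by symbol, as a set of 39 mouse genes, from the 31062 features of each count table, and all 39 were found. The set holds 12 basement membrane genes, 16 genes of collagens and interstitial matrix, and 11 genes of matrix enzymes, inhibitors and collagen handling. Of these, 31 passed the filter on low counts (10, 12 and 9 in the same order), and the other 8 were at or near 0 in all groups.

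The data are gene counts from poly-A RNA of 24 libraries. They come from ID8 p53-/-, ovarian cancer cells of the mouse, grown here as an Ifngr1-KO line, edited in the interferon-gamma receptor gene, and as the control line labelled sgNTC. Both lines lack p53, so every group shares that deletion. Cells were kept for 48 hours in ultra-low attachment (ULA) plates, where they float, or in adherent plates, with 100 ng/ml IFN-gamma or the vehicle PBS added for the final 24 hours. The 8 groups of 3 biological replicates were ULA Ifngr1-KO with IFN-gamma, ULA Ifngr1-KO with PBS, ULA sgNTC with IFN-gamma, ULA sgNTC with PBS, and the same 4 in adherent plates. Each genotype is 1 line, so a difference between Ifngr1-KO and sgNTC cannot be told apart from a difference between those lines. Only ULA samples had dead cells taken out, per the labels' protocols, so that step and the culture condition cannot be told apart.

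Basement membranes are thin sheets built on a laminin network and a collagen IV network, which nidogens and the heparan sulfate proteoglycans perlecan and agrin tie together. Interstitial matrix is built instead on fibrillar collagens, fibronectin and the small proteins and proteoglycans that bind them. Collagen chains are hydroxylated by lysyl hydroxylases and folded with the chaperone Serpinh1 inside the cell, cross-linked by lysyl oxidases outside it, cut by metalloproteases under the control of Timp proteins, and taken up through the receptor Mrc2. Ovarian cancer cells that detach and float in the peritoneal cavity lose contact with a basement membrane.

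Totals ran from 33494774 to 63154942 counts per library. The edited gene, Ifngr1, ranged over 13.3 to 17.0 CPM across the 12 Ifngr1-KO libraries, against 31.7 to 48.1 CPM across the 12 of sgNTC, without overlap. CPM here is counts divided by the TMM-adjusted library size in units of 1e+06. Of 12 epithelial and mesothelial markers, Krt8, Krt18, Krt19, Msln and Wt1 were the most abundant in every group, Krt7, Cdh1 and Pax8 stayed under 1 CPM as group means, and Epcam and Krt5 had 0 counts in all 24 libraries. The other two, Muc16 and Upk3b, had lower means in Ifngr1-KO than in sgNTC cells of the same culture. With PBS Muc16 averaged 1.45 CPM in ULA Ifngr1-KO and 29.2 CPM in ULA sgNTC cells, and 0.0738 CPM in adherent Ifngr1-KO and 17.3 CPM in adherent sgNTC cells. Upk3b averaged 0.24 CPM in ULA Ifngr1-KO and 2.06 CPM in ULA sgNTC cells, and 0.353 CPM in adherent Ifngr1-KO and 7.51 CPM in adherent sgNTC cells. Of 11 fibroblast and pericyte markers 4 passed the filter, with Thy1 and Lum at 0 counts, and of 6 lymphocyte markers none did. Of 8 macrophage markers 4 passed, with Ptprc at 16 counts over all libraries, and of 6 endothelial markers 2 passed, with Kdr at 1 count. Other markers of these lists were expressed. In ULA Ifngr1-KO libraries with PBS the fibroblast and pericyte list, mostly Dcn, summed to 96.3 to 99.8 CPM. The macrophage list summed to 29.8 to 33.7 CPM and the endothelial list, nearly all Vwf, to 75.1 to 81.3 CPM there. Libraries adherent Ifngr1-KO PBS replicate 3 and ULA Ifngr1-KO IFN-gamma replicate 2 stood apart from their groups. Leaving both out lost 6 of the 241 calls made for matrix genes over all comparisons and turned none round.

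Together the 39 genes took 0.966% to 1.04% of all counts in ULA Ifngr1-KO libraries with IFN-gamma and 0.975% to 1.01% with PBS. In ULA sgNTC libraries they took 0.667% to 0.708% with IFN-gamma and 0.709% to 0.772% with PBS. Adherent Ifngr1-KO libraries gave 0.582% to 0.637%, and adherent sgNTC libraries 0.571% to 0.604%. All shares of ULA libraries lay above those of all adherent libraries in both lines. In bulk RNA, a higher share of cells that express a gene and more RNA per cell cannot be told apart.

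Per exon length, the most abundant of the 39 genes in ULA Ifngr1-KO cells with PBS was Timp2, an inhibitor of metalloproteases, at 1365 TPM. In adherent sgNTC cells with PBS it was Sparc, a collagen-binding matricellular protein, at 983 TPM, followed by Serpinh1 at 839 TPM. Basement membrane genes reached 365 TPM for Hspg2, which encodes perlecan, and 327 TPM for Lama5 in ULA Ifngr1-KO cells with PBS. Fibrillar collagens were low in all groups. Col1a1, a chain of collagen I, reached at most 29.8 TPM as a group mean, in adherent sgNTC cells with PBS. Its partner chain Col1a2 had 7 counts over all 24 libraries, against 24637 counts for Col1a1. The other genes that did not pass the filter were Lama1 (6 counts over all libraries), Nid2 (15), Thbs2 (52), Fbln1 (9), Postn (2), Loxl1 (76) and Mmp14 (16). These include a laminin alpha chain, a nidogen, a thrombospondin, a fibulin, periostin, a lysyl oxidase and the membrane metalloprotease that activates Mmp2.

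**Figure D1:**
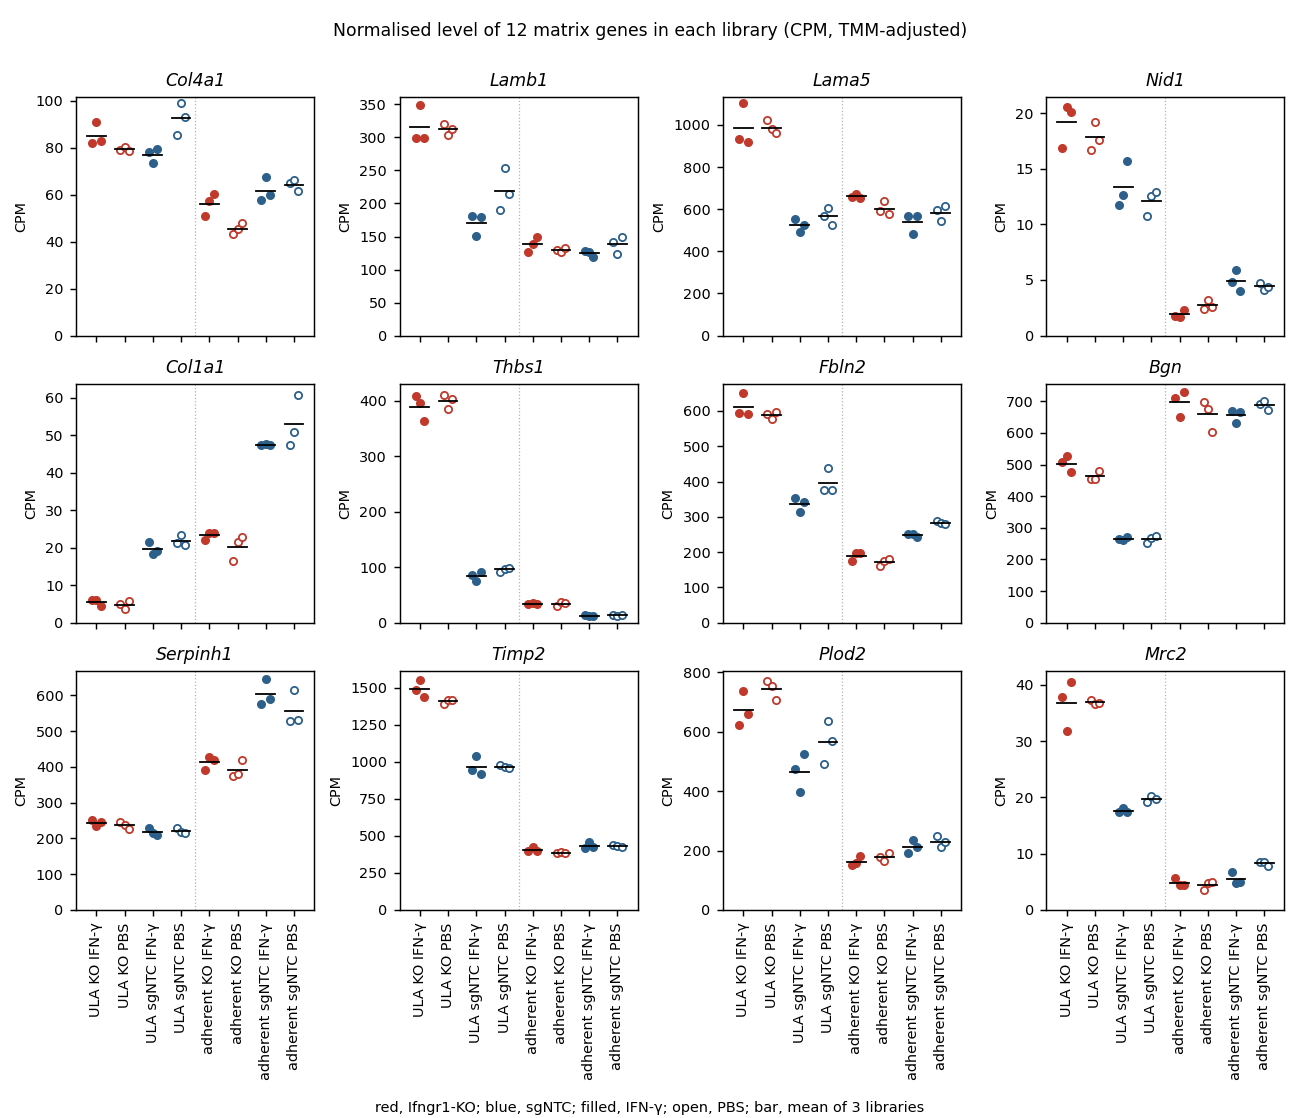
Normalised level (CPM, linear axes from 0) of 12 matrix genes in each of the 24 libraries, with ULA groups left of adherent groups; points are libraries and bars the mean of 3. Thbs1 sits at 384 to 410 CPM in ULA Ifngr1-KO libraries with PBS and at 12.9 to 14.8 CPM in adherent sgNTC libraries with PBS, while Bgn and Serpinh1 are lower in ULA groups.

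Chains of collagen IV assemble in fixed trimers, the commonest holding the products of Col4a1 and Col4a2. Both genes lie head to head on mouse chromosome 8 (GRCm38), Col4a1 at 11198423 to 11312826 on the minus strand and Col4a2 at 11312805 to 11449287 on the plus strand. Their annotated ends overlap, and reads that fall on both genes were not assigned to either. The promoter windows of RefSeq (GRCm38.p6), from 250 bases before to 50 after each start site, are shown because the windows of these genes overlap and the genes were measured as a pair. They read 5′ to 3′ on each gene's own strand, and the capitals mark the 78 bases that both windows hold, on opposite strands.
Col4a1, chr8:11312777-11313076, minus strand: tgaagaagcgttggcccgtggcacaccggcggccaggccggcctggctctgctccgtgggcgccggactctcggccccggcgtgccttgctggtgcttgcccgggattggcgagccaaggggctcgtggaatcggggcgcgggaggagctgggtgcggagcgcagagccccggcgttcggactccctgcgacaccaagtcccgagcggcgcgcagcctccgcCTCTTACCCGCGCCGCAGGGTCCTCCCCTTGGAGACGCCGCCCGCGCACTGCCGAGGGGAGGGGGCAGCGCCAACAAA
Col4a2, chr8:11312555-11312854, plus strand: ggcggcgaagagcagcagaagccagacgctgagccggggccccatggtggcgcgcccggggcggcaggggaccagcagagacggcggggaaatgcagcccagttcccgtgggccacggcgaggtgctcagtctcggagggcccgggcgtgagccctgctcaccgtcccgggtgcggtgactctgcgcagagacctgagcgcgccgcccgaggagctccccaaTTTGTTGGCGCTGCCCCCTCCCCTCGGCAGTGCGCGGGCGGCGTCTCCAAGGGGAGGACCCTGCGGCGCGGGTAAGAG
The start sites are 21 bases apart. The motif CCAAT, searched on both strands, occurs once in each window, and 37.4% of all 32851 windows of that length hold it. The motif GGGCGG, searched on both strands, occurs once in the Col4a1 window and 3 times in the Col4a2 window. The Col4a1 site lies within the shared bases and is the same site as 1 of the 3 in the Col4a2 window. Of all windows, 35.7% hold GGGCGG. Windows were found for 26 of the 39 genes (30 windows), of which 11 held CCAAT and 22 held GGGCGG. The motifs were counted separately.

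Detachment was first compared within each line under PBS, asking which matrix genes differ between floating and attached cells. A gene was called at an adjusted p under 0.05 in edgeR (quasi-likelihood, Benjamini-Hochberg over 14622 genes), and "rose" and "fell" refer to such calls. In Ifngr1-KO cells 27 of the 31 tested matrix genes were called, 21 higher and 6 lower in ULA, where 60.7% of all tested genes were called. In sgNTC cells 26 of 31 were called, 19 higher and 7 lower, where 64.6% of all tested genes were called. The 7 include Col5a1, which passed the filter through sgNTC libraries, so its call is a description, with no test. The genes called higher in each line include Col6a3, which may have passed through the ULA libraries where it is higher. Its calls, which also enter the counts past 2-fold below, are likewise a description. Of all tested genes, 29.6% rose and 31.1% fell in Ifngr1-KO cells, and 32.5% rose and 32.1% fell in sgNTC cells. Of the matrix genes, 11 rose past 2-fold in Ifngr1-KO cells (11.5% of all genes) and 9 in sgNTC cells (13.8% of all genes).

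Most basement membrane genes rose on detachment. In Ifngr1-KO cells 9 of 10 tested rose and Lamc1 fell, with a median log2 fold change of 0.73 against -0.0036 over all genes. In sgNTC cells 8 of 10 rose and Lama5 and Lamc1 were not called, with a median of 0.60 against 0.03 over all genes.

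Col4a1 stood at 79.0, 80.5 and 78.7 CPM in ULA Ifngr1-KO cells with PBS and at 43.4, 45.5 and 47.9 CPM in adherent ones, or 0.80 ± 0.07 on the log2 scale (SE throughout, adjusted p = 1.88e-12). In sgNTC cells it stood at 85.7, 98.9 and 93.0 CPM in ULA and at 65.1, 66.3 and 61.5 CPM in adherent cells (0.52 ± 0.07, adjusted p = 1.9e-08). All ULA libraries lay above all adherent ones of the same line. Col4a2 moved with its neighbour, by 0.75 ± 0.06 in Ifngr1-KO and 0.69 ± 0.06 in sgNTC cells. The ratio of Col4a2 to Col4a1, per exon length, was 1.44 ± 0.07 in ULA Ifngr1-KO, 1.45 ± 0.05 in ULA sgNTC, 1.5 ± 0.13 in adherent Ifngr1-KO and 1.29 ± 0.09 in adherent sgNTC cells (SD, n = 3).

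Col4a5, on the X chromosome, encodes a chain found in other collagen IV trimers and was the most abundant collagen IV gene per exon length. It averaged 132 ± 5.19 TPM in ULA Ifngr1-KO and 152 ± 7.52 TPM in ULA sgNTC cells with PBS, against 92.3 ± 3.23 TPM in adherent Ifngr1-KO and 127 ± 3.96 TPM in adherent sgNTC cells (SD, n = 3). Col4a6, its partner chain but not one of the 39 genes, averaged 87.0 ± 3.01, 127 ± 10.3, 61.1 ± 3.43 and 85.5 ± 4.57 TPM in the same order. Col4a1 averaged 40.1, 47.1, 23.2 and 31.7 TPM. Both Col4a5 and Col4a6 thus had more transcript per length than Col4a1 in each of the 4 PBS groups. Col4a3 and Col4a4, which form the remaining kind of trimer with Col4a5, stayed at or under 1.04 TPM as group means.

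Laminins are trimers of an alpha, a beta and a gamma chain, and Lama5 was the main alpha chain measured. Lama5 stood at 1021, 979 and 963 CPM in ULA Ifngr1-KO cells with PBS and at 592, 637 and 578 CPM in adherent ones, a log2 fold change of 0.71 ± 0.07 (adjusted p = 8.39e-11). Levels in sgNTC cells were 569, 607 and 527 CPM in ULA and 594, 543 and 615 CPM in adherent cells, which overlapped (-0.04 ± 0.07, 95% interval -0.18 to 0.10, adjusted p = 0.612). The ULA Ifngr1-KO group thus stood above the other groups for this gene.

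Lamb1, a beta chain, stood at 321, 304 and 313 CPM in ULA and 130, 126 and 132 CPM in adherent Ifngr1-KO cells (1.27 ± 0.09, adjusted p = 1.2e-11). The sgNTC line had 190, 253 and 214 CPM in ULA and 142, 124 and 148 CPM in adherent cells (0.67 ± 0.09, adjusted p = 6.35e-07). Neither line's groups overlapped. Lamb2, the alternative beta chain, rose by 0.60 ± 0.06 in Ifngr1-KO and by 0.89 ± 0.06 in sgNTC cells. The ratio of Lamb2 to Lamb1, per exon length, was 1.05 ± 0.02 in ULA Ifngr1-KO and 1.92 ± 0.31 in ULA sgNTC cells, against 1.67 ± 0.14 in adherent Ifngr1-KO and 1.63 ± 0.21 in adherent sgNTC cells (SD, n = 3).

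Lamc1, the main gamma chain, differed by little between cultures and more between lines. It stood at 409, 421 and 411 CPM in ULA and 507, 489 and 426 CPM in adherent Ifngr1-KO cells, and fell by 0.20 ± 0.06 on the log2 scale (adjusted p = 0.00387). In the sgNTC line values were 288, 311 and 288 CPM in ULA and 299, 292 and 300 CPM in adherent cells, and the difference was not called (-0.01 ± 0.06, 95% interval -0.13 to 0.11, adjusted p = 0.935).

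**Figure D2:**
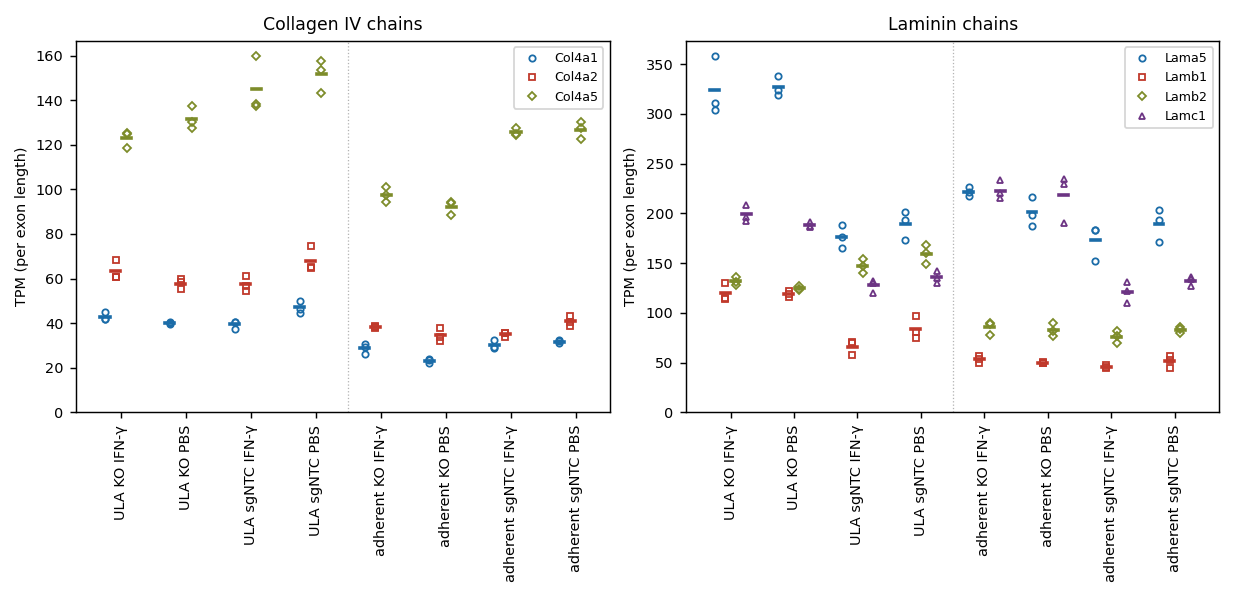
Transcript level per exon length (TPM, axes from 0) of collagen IV chains (left) and laminin chains (right) in the 8 groups, ULA left of adherent; symbols are libraries and short bars the mean of 3. Col4a5 lies above Col4a2 and Col4a1 in every group, and Lama5 is at 327 TPM in ULA Ifngr1-KO cells with PBS, against 173 to 222 TPM as group means in the 3 other combinations of line and culture.

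Nid1, the nidogen that links laminin to collagen IV, was low but changed most among basement membrane genes. It stood at 16.7, 19.2 and 17.6 CPM in ULA and 2.35, 3.20 and 2.59 CPM in adherent Ifngr1-KO cells, a log2 fold change of 2.71 ± 0.15 (adjusted p = 3.83e-17). sgNTC cells showed 10.8, 12.6 and 12.9 CPM in ULA and 4.73, 4.14 and 4.39 CPM in adherent cells (1.44 ± 0.14, adjusted p = 9.57e-11). All ULA libraries exceeded all adherent libraries in both lines. Hspg2 rose by 0.93 ± 0.06 in Ifngr1-KO and by 0.51 ± 0.06 in sgNTC cells. Agrn, which encodes agrin, rose by 0.65 ± 0.07 in Ifngr1-KO and by 1.05 ± 0.07 in sgNTC cells.

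Interstitial matrix genes went both ways on detachment, as all tested genes did. Of 12 tested, 5 rose (41.7%) and 4 fell (33.3%) in Ifngr1-KO cells, where 29.6% of all tested genes rose and 31.1% fell. In sgNTC cells 5 rose (41.7%) and 5 fell (41.7%), where 32.5% of all tested genes rose and 32.1% fell. Of these 12, Col3a1, Col5a1 and Col5a2 had groups with 0 counts and passed the filter through sgNTC libraries. Col5a1 is counted among the 5 that fell in sgNTC cells, and Col6a3 among the 5 that rose in each line. The Col5a1 and Col6a3 calls are descriptions, with no test.

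Thbs1, a thrombospondin that can activate latent TGF-beta, had the largest log2 fold change in each line among the 28 genes without a group at 0 counts. It stood at 410, 384 and 402 CPM in ULA and 29.5, 36.6 and 35.1 CPM in adherent Ifngr1-KO cells (3.56 ± 0.07, adjusted p = 2.05e-28). Counterparts in sgNTC cells were 91.7, 97.5 and 98.7 CPM in ULA and 14.8, 12.9 and 13.5 CPM in adherent cells (2.80 ± 0.08, adjusted p = 1.82e-25). The 4 groups did not overlap. Tnc, which encodes tenascin C, rose by 2.00 ± 0.13 in Ifngr1-KO and 1.74 ± 0.14 in sgNTC cells, with adherent levels under 4 CPM.

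Fbln2, a fibulin that binds laminin and fibronectin, stood at 590, 577 and 597 CPM in ULA and 160, 175 and 181 CPM in adherent Ifngr1-KO cells (1.77 ± 0.06, adjusted p = 4.43e-23). For sgNTC cells the values were 376, 438 and 375 CPM in ULA and 288, 282 and 280 CPM in adherent cells (0.48 ± 0.06, adjusted p = 9.64e-09). The groups did not overlap in either line. Fn1, which encodes fibronectin, rose by 1.00 ± 0.10 in Ifngr1-KO and by 0.68 ± 0.10 in sgNTC cells. Col6a3, a collagen VI chain at under 2 CPM throughout, had 469 counts over 24 libraries, with at most 59 in 1 library. It may have passed the filter through the ULA libraries where it is higher, so its change is a description. The log2 fold change was 2.54 ± 0.57 in Ifngr1-KO and 1.61 ± 0.59 in sgNTC cells, where the libraries overlapped. The sgNTC call was lost without adherent replicate 1 (1.19, adjusted p = 0.106) or ULA replicate 1 (1.25, adjusted p = 0.0981).

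Col1a1, Sparc, Bgn and Fbn1 fell in both lines. Col1a1 stood at 5.11, 3.55 and 5.78 CPM in ULA and 16.6, 21.5 and 22.9 CPM in adherent Ifngr1-KO cells, and fell by 2.08 ± 0.14 on the log2 scale (adjusted p = 1.56e-13). In sgNTC cells it stood at 21.2, 23.5 and 20.7 CPM in ULA and 47.3, 50.8 and 60.8 CPM in adherent cells, and fell by 1.28 ± 0.12 (adjusted p = 1.96e-10). ULA libraries lay below adherent ones in both lines.

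Bgn, which encodes the proteoglycan biglycan, stood at 453, 455 and 479 CPM in ULA and 698, 675 and 603 CPM in adherent Ifngr1-KO cells, and fell by 0.51 ± 0.05 (adjusted p = 3.38e-10). Levels in sgNTC cells were 251, 268 and 273 CPM in ULA and 691, 700 and 672 CPM in adherent cells, and fell by 1.38 ± 0.05 (adjusted p = 1.27e-21). Its ULA libraries were lower in sgNTC than in Ifngr1-KO cells, while its adherent libraries overlapped between the lines. Sparc fell by 0.39 ± 0.05 in Ifngr1-KO and by 0.76 ± 0.05 in sgNTC cells. Fbn1, the fibrillin of microfibrils, at under 5 CPM, fell by 0.87 ± 0.24 and by 1.19 ± 0.23 in Ifngr1-KO and in sgNTC cells. Of its exon bases 20.1% overlap another annotated gene, so its counts are less certain.

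Col5a1 encodes a chain of the collagen that starts fibrils. In sgNTC cells it stood at 0.121, 0.0401 and 0.0967 CPM in ULA and 0.522, 0.394 and 0.429 CPM in adherent libraries. It passed the filter through sgNTC libraries, so its call as lower in ULA is a description, with no test. That call was lost without ULA replicate 2 and with no filter on low counts.

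Among enzymes, inhibitors and collagen-handling genes, 7 of 9 tested rose and 1 fell in Ifngr1-KO cells, and 6 rose and 2 fell in sgNTC cells. Of all tested genes, 29.6% rose and 31.1% fell in Ifngr1-KO cells, and 32.5% rose and 32.1% fell in sgNTC cells. Their median log2 fold change was 1.00 in Ifngr1-KO cells, against -0.0036 over all genes, and 0.88 in sgNTC cells, against 0.03 over all genes.

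Timp2 stood at 1393, 1420 and 1419 CPM in ULA and 382, 391 and 387 CPM in adherent Ifngr1-KO cells (1.87 ± 0.05, adjusted p = 1.89e-26). The sgNTC line had 978, 968 and 956 CPM in ULA and 439, 431 and 426 CPM in adherent cells (1.16 ± 0.05, adjusted p = 4.91e-21). Libraries of a group lay within a few percent of each other and the groups were far apart. Timp1, the related inhibitor, rose by 1.00 ± 0.11 in Ifngr1-KO and by 0.48 ± 0.11 in sgNTC cells.

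Plod2, the lysyl hydroxylase of collagen telopeptides, stood at 772, 754 and 708 CPM in ULA and 178, 166 and 192 CPM in adherent Ifngr1-KO cells (2.06 ± 0.11, adjusted p = 3.43e-12). In the sgNTC line values were 490, 637 and 567 CPM in ULA and 248, 213 and 228 CPM in adherent cells (1.30 ± 0.11, adjusted p = 3.1e-09). Neither pair of groups overlapped. Plod1, which hydroxylates the helical part, rose by 0.89 ± 0.08 in Ifngr1-KO and by 0.88 ± 0.09 in sgNTC cells. Loxl2, a lysyl oxidase that acts on collagen IV, rose by 1.98 ± 0.14 in Ifngr1-KO and by 1.26 ± 0.14 in sgNTC cells.

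Mrc2, the collagen uptake receptor also called Endo180, stood at 37.3, 36.5 and 36.8 CPM in ULA and 3.63, 4.79 and 5.03 CPM in adherent Ifngr1-KO cells (3.04 ± 0.12, adjusted p = 5.85e-21). sgNTC cells showed 19.1, 20.2 and 19.6 CPM in ULA and 8.61, 8.44 and 7.88 CPM in adherent cells (1.24 ± 0.12, adjusted p = 2.43e-11). The line with the lower adherent level had the higher ULA level.

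Serpinh1, the collagen chaperone, moved the other way. It stood at 246, 238 and 228 CPM in ULA and 375, 380 and 418 CPM in adherent Ifngr1-KO cells, and fell by 0.72 ± 0.06 (adjusted p = 6.89e-13). Counterparts in sgNTC cells were 230, 219 and 216 CPM in ULA and 527, 614 and 530 CPM in adherent cells, and fell by 1.33 ± 0.06 (adjusted p = 3.97e-20). The lines' ULA libraries overlapped, and their adherent libraries did not. Mmp2, a gelatinase that cuts collagen IV, at about 3 CPM or less, fell by 0.96 ± 0.31 in sgNTC cells and was not called in Ifngr1-KO cells (0.43 ± 0.36). Loxl3, whose exons overlap another gene over 11.6% of their bases, rose in Ifngr1-KO cells by 0.77 ± 0.26 with overlapping libraries. That call was lost without adherent replicate 2 (adjusted p = 0.0629), ULA replicate 1 (0.0655) or ULA replicate 2 (0.0552).

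**Figure D3:**
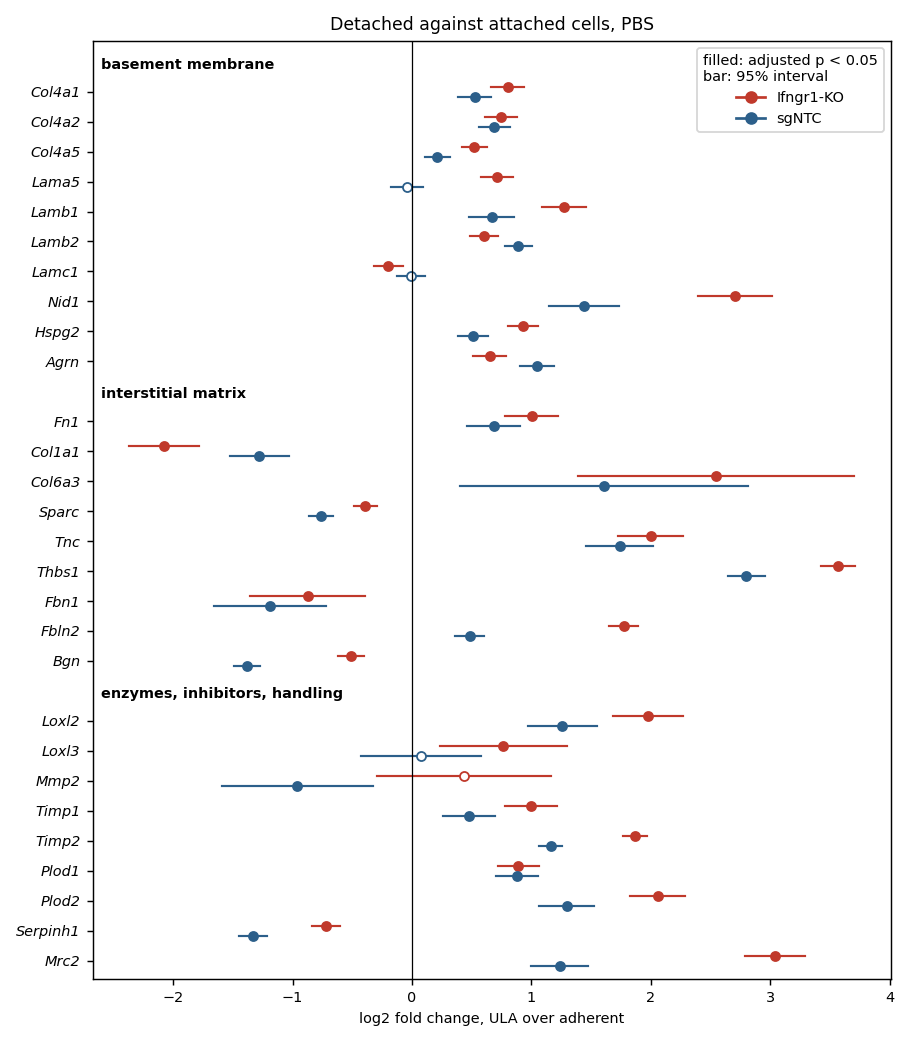
Log2 fold change of ULA over adherent cells under PBS for 28 matrix genes by role (3 with a group at 0 counts are left out), in Ifngr1-KO and sgNTC cells; bars are 95% intervals and filled points passed an adjusted p under 0.05. Col1a1, Sparc, Bgn, Fbn1 and Serpinh1 lie left of 0 in both lines, while Thbs1 and Nid1 lie far to the right.

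With IFN-gamma, 24 of 31 tested matrix genes were called in Ifngr1-KO cells (19 higher, 5 lower), where 60.2% of all genes were (29.3% higher, 30.9% lower), and 24 of 31 in sgNTC cells (19 higher, 5 lower), where 64.6% were (32.6% higher, 32% lower). Any call of Col3a1, Col5a1, Col5a2 or Col6a3 in these counts is a description, with no test. Thbs1 changed by 3.53 ± 0.07 in Ifngr1-KO and 2.77 ± 0.08 in sgNTC cells with IFN-gamma. In the same order Nid1 changed by 3.32 ± 0.16 and 1.45 ± 0.14, and Serpinh1 by -0.76 ± 0.06 and -1.47 ± 0.06. Lama5 again rose in Ifngr1-KO cells (0.58 ± 0.07) and was not called in sgNTC cells (-0.04 ± 0.07, adjusted p = 0.617). Lamc1 fell in Ifngr1-KO cells by 0.14 ± 0.06, a call lost with DESeq2 (-0.10, adjusted p = 0.182), with no filter (adjusted p = 0.0682), when only the compared groups were fitted (adjusted p = 0.0669) and without any of 5 single libraries, the highest adjusted p being 0.172 without adherent Ifngr1-KO replicate 1. Col4a5 rose in sgNTC cells by 0.14 ± 0.05, and this call was lost without ULA replicate 1 (0.07, adjusted p = 0.245) or adherent replicate 1 (0.12, adjusted p = 0.0615), with no filter (0.11, adjusted p = 0.114) and when only the compared groups were fitted (0.12, adjusted p = 0.0647).

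Libraries differed by culture in other respects as well. Counts of mitochondrial genes were 3.31% to 3.87% of the total in ULA Ifngr1-KO and 5.09% to 6.12% in ULA sgNTC libraries, against 1.96% to 2.45% in adherent Ifngr1-KO and 2.49% to 2.94% in adherent sgNTC libraries. The summed level of the 12 epithelial and mesothelial markers under PBS was 4110 to 4267 CPM in ULA Ifngr1-KO and 2793 to 2848 CPM in ULA sgNTC libraries, against 1727 to 2027 CPM in adherent Ifngr1-KO and 2033 to 2193 CPM in adherent sgNTC libraries. Its largest member, Krt19, averaged 2054 CPM in ULA Ifngr1-KO and 1414 CPM in ULA sgNTC cells with PBS, against 596 CPM in adherent Ifngr1-KO and 772 CPM in adherent sgNTC cells. Msln did not follow the sum, at 571 CPM in ULA and 571 CPM in adherent Ifngr1-KO cells, and at 307 CPM in ULA and 669.9 CPM in adherent sgNTC cells. The summed level of the 11 fibroblast and pericyte markers under PBS was 96.3 to 99.8 CPM in ULA Ifngr1-KO and 99.6 to 101.5 CPM in ULA sgNTC libraries, against 17.9 to 19.0 CPM in adherent Ifngr1-KO and 45.3 to 55.7 CPM in adherent sgNTC libraries. Most of it was Dcn, a proteoglycan gene, while Thy1 and Lum were at 0 counts in all 24 libraries and Pdgfrb had 5 counts. The 6 endothelial markers summed to 75.1 to 81.3 CPM in ULA Ifngr1-KO and 25.5 to 30.5 CPM in ULA sgNTC libraries with PBS, against 25.4 to 35.7 CPM in adherent Ifngr1-KO and 5.25 to 7.23 CPM in adherent sgNTC libraries. Nearly all of that was Vwf, while Kdr had 1 count and Cdh5 10 counts over all libraries. The 8 macrophage markers summed to 29.8 to 33.7 CPM in ULA Ifngr1-KO and 18.9 to 19.6 CPM in ULA sgNTC libraries with PBS, against 15.3 to 17.0 CPM in adherent Ifngr1-KO and 14.7 to 16.7 CPM in adherent sgNTC libraries. The part of mitochondrial content and of these marker levels in the results was not tested.

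Whether detachment acted differently in the lines was tested as an interaction, the Ifngr1-KO log2 change less the sgNTC one. Under PBS 20 of 31 tested matrix genes were called, 17 with a positive and 3 with a negative difference, where 27.8% of all tested genes were called (16.6% positive, 11.2% negative). With IFN-gamma 19 of 31 were called, 16 positive and 3 negative, where 32.3% of all tested genes were (19% positive, 13.3% negative).

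The difference under PBS was 1.80 ± 0.17 for Mrc2 (adjusted p = 4.7e-10), 1.29 ± 0.08 for Fbln2 (8.66e-14) and 1.27 ± 0.21 for Nid1 (1.62e-05). It was 0.76 ± 0.16 for Plod2, 0.76 ± 0.10 for Thbs1, 0.75 ± 0.10 for Lama5 and 0.70 ± 0.07 for Timp2. For these 7 genes, 6 of which rose in both lines, the rise was larger in Ifngr1-KO cells, and Lama5 rose in that line and was not called in the other. For Bgn (0.87 ± 0.08), Serpinh1 (0.61 ± 0.08) and Sparc (0.37 ± 0.07) a positive difference meant a smaller fall in Ifngr1-KO cells.

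Negative differences were found for Col1a1 (-0.80 ± 0.19), which fell further in Ifngr1-KO cells, and for Agrn (-0.40 ± 0.10) and Lamb2 (-0.29 ± 0.08), which rose less. The laminin beta chains thus differed in opposite directions, with Lamb1 at 0.61 ± 0.13. The difference for Plod1 was 0.01 ± 0.12 (95% interval -0.23 to 0.26) and for Col4a2 0.06 ± 0.09 (-0.13 to 0.24), and neither was called. Of the PBS calls 3 were lost when 1 library was left out. Mmp2 (1.39 ± 0.47) was lost without any of 4 libraries, the highest adjusted p being 0.0811 without adherent Ifngr1-KO replicate 1. Timp1 (0.52 ± 0.15) was lost without adherent sgNTC replicate 2 (0.38, adjusted p = 0.0618). Col4a1 (0.28 ± 0.10) was lost without any of 5 libraries, the highest adjusted p being 0.102 without ULA sgNTC replicate 1, and with library totals in place of TMM (0.18, adjusted p = 0.131).

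The lines were next compared within each culture. In adherent cells with PBS 22 of 31 tested matrix genes were called between Ifngr1-KO and sgNTC cells, 7 higher and 15 lower, where 43.9% of all tested genes were called (20.1% higher, 23.9% lower). In ULA cells with PBS 24 of 31 were called, 16 higher and 8 lower, where 50.1% of all genes were called (24.5% higher, 25.6% lower). These comparisons use the same 12 libraries as the PBS detachment comparisons and are not independent of them.

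Among fibrillar collagen genes, Col1a1 was lower in the Ifngr1-KO line in both cultures. It was lower by 2.18 ± 0.14 in ULA (adjusted p = 1.64e-13) and by 1.38 ± 0.12 in adherent cells (adjusted p = 2.44e-10) with PBS, and its libraries did not overlap between the lines in either culture.

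The counts of lower genes above include Col3a1 and Col5a2 in both cultures and Col5a1 in adherent cells. These 3 genes passed the filter on low counts through the sgNTC libraries in which they are high, so their values are given as a description, with no test. Col3a1, which encodes collagen III, had 0 counts in the 3 ULA Ifngr1-KO libraries with PBS, against 1.88, 1.22 and 0.435 CPM in ULA sgNTC libraries. In adherent cells with PBS it had 0 counts in the 3 Ifngr1-KO libraries, against 1.30, 2.56 and 1.75 CPM in sgNTC libraries. Against a floor of 3 counts over the Ifngr1-KO group, the sgNTC mean of Col3a1 was 45.9-fold higher in ULA and 75.7-fold higher in adherent cells. Each mate was counted on its own and the spread of sgNTC libraries was not allowed for, so such folds are not lower bounds. With IFN-gamma 4 counts were found in ULA and 10 counts in adherent Ifngr1-KO libraries, against 165 and 213 counts in the sgNTC groups of the same cultures.

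Col5a2, which lies next to Col3a1 on chromosome 1 (45374321 to 45503282, minus strand, against 45311538 to 45349706, plus strand, GRCm38), had 0 counts in ULA Ifngr1-KO libraries with PBS, against 0.408, 0.401 and 0.387 CPM in ULA sgNTC libraries. The sgNTC mean was 15.5-fold above the same floor. In adherent cells with PBS Col5a2 had 2 counts in Ifngr1-KO and 50 counts in sgNTC libraries. Col5a1 had 0 counts in adherent Ifngr1-KO libraries with PBS, against 56 counts in sgNTC libraries, whose mean was 18.1-fold above such a floor. In ULA cells with PBS Col5a1 had 2 counts in Ifngr1-KO and 14 counts in sgNTC libraries. All 3 genes were near the limit of detection in sgNTC cells too, at 2.56 CPM or less.

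Collagen IV genes were also lower in the Ifngr1-KO line under PBS. Col4a1 was lower by 0.22 ± 0.07 in ULA (adjusted p = 0.00594) and by 0.50 ± 0.07 in adherent cells (adjusted p = 2.75e-07). Col4a2 was lower by 0.23 ± 0.06 in ULA and 0.28 ± 0.06 in adherent cells, and Col4a5 by 0.19 ± 0.05 in ULA and 0.50 ± 0.05 in adherent cells. In ULA, the Col4a1 call was lost without sgNTC replicate 2 (-0.17, adjusted p = 0.0572) or replicate 3 (-0.18, adjusted p = 0.0534), and the Col4a2 call without sgNTC replicate 2 (-0.15, adjusted p = 0.0552). With IFN-gamma Col4a5 was again lower in the Ifngr1-KO line, by 0.21 ± 0.05 in ULA and 0.43 ± 0.05 in adherent cells. In adherent cells with IFN-gamma Col4a1 (-0.14 ± 0.07, adjusted p = 0.0938) and Col4a2 (0.06 ± 0.06, adjusted p = 0.483) were not called. In ULA cells with IFN-gamma Col4a1 was not called (0.15 ± 0.07, adjusted p = 0.0641) and Col4a2 was higher in Ifngr1-KO cells (0.17 ± 0.06, adjusted p = 0.0242), a call lost without Ifngr1-KO replicate 2 (0.10, adjusted p = 0.225), sgNTC replicate 2 (0.14, adjusted p = 0.112) or sgNTC replicate 3 (0.16, adjusted p = 0.0591), and with library totals in place of TMM (0.10, adjusted p = 0.158).

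Laminin genes other than Lamb2 were higher in floating Ifngr1-KO cells. In ULA with PBS, Lama5 was higher in Ifngr1-KO cells by 0.80 ± 0.07 (adjusted p = 1.86e-11), Lamb1 by 0.51 ± 0.09 and Lamc1 by 0.48 ± 0.06, while Lamb2 was lower by 0.34 ± 0.06. In adherent cells with PBS Lamc1 was higher by 0.68 ± 0.06 (adjusted p = 1.55e-11), and Lama5 (0.05 ± 0.07), Lamb1 (-0.09 ± 0.09) and Lamb2 (-0.05 ± 0.06) were not called. Hspg2 was higher in Ifngr1-KO cells by 0.45 ± 0.06 in ULA and was not called in adherent cells (0.03 ± 0.06). Agrn was higher by 0.43 ± 0.07 in adherent cells and was not called in ULA (0.03 ± 0.07).

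Several genes differed between the lines in opposite directions in the 2 cultures. Mrc2 was higher in Ifngr1-KO cells by 0.91 ± 0.11 in ULA and lower by 0.89 ± 0.13 in adherent cells. Nid1 was higher by 0.56 ± 0.13 in ULA and lower by 0.70 ± 0.16 in adherent cells. Fbln2 was higher by 0.57 ± 0.06 in ULA and lower by 0.72 ± 0.06 in adherent cells. Timp2 (0.54 ± 0.05) and Plod2 (0.40 ± 0.11) were also higher in ULA Ifngr1-KO cells, and both were lower in adherent ones. These reversals are the interactions given above, seen from the other side.

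Thbs1 was higher in the Ifngr1-KO line in both cultures, by 2.06 ± 0.07 in ULA (adjusted p = 2.83e-22) and 1.29 ± 0.08 in adherent cells (adjusted p = 3.33e-15). Tnc was higher by 0.74 ± 0.12 in ULA and 0.48 ± 0.15 in adherent cells, Sparc by 0.60 ± 0.05 and 0.23 ± 0.05, and Plod1 by 0.49 ± 0.08 and 0.48 ± 0.09. The adherent call of Tnc was lost when only the compared groups were fitted (0.50, adjusted p = 0.0583). Bgn was higher by 0.81 ± 0.05 in ULA and was not called in adherent cells (-0.06 ± 0.05). Mmp2 was lower by 0.81 ± 0.33 in ULA and 2.20 ± 0.34 in adherent Ifngr1-KO cells. The ULA call of Mmp2 (adjusted p = 0.0425) was lost without any of 7 single libraries, the highest adjusted p being 0.167 without ULA Ifngr1-KO replicate 3. Loxl2 was higher by 0.46 ± 0.14 in ULA, a call lost without sgNTC replicate 1 (0.36, adjusted p = 0.0533). Serpinh1 was lower by 0.51 ± 0.06 in adherent cells and was not called in ULA (0.10 ± 0.06).

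In adherent cells Timp1 was higher by 0.32 ± 0.11 with overlapping libraries, Plod2 lower by 0.36 ± 0.11, Loxl3 lower by 0.79 ± 0.26 and Timp2 lower by 0.16 ± 0.05. The Timp1 call was lost without Ifngr1-KO replicate 3 (0.20, adjusted p = 0.168), sgNTC replicate 1 (0.21, adjusted p = 0.178) or sgNTC replicate 3 (0.29, adjusted p = 0.0648). The Plod2 call was lost without Ifngr1-KO replicate 2 (-0.31, adjusted p = 0.0563) or sgNTC replicate 1 (-0.30, adjusted p = 0.0611). The Loxl3 call was lost without Ifngr1-KO replicate 2 (-0.65, adjusted p = 0.0728) or sgNTC replicate 2 (-0.65, adjusted p = 0.0725), and the Timp2 call with library totals in place of TMM (-0.11, adjusted p = 0.0594).

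**Figure D4:**
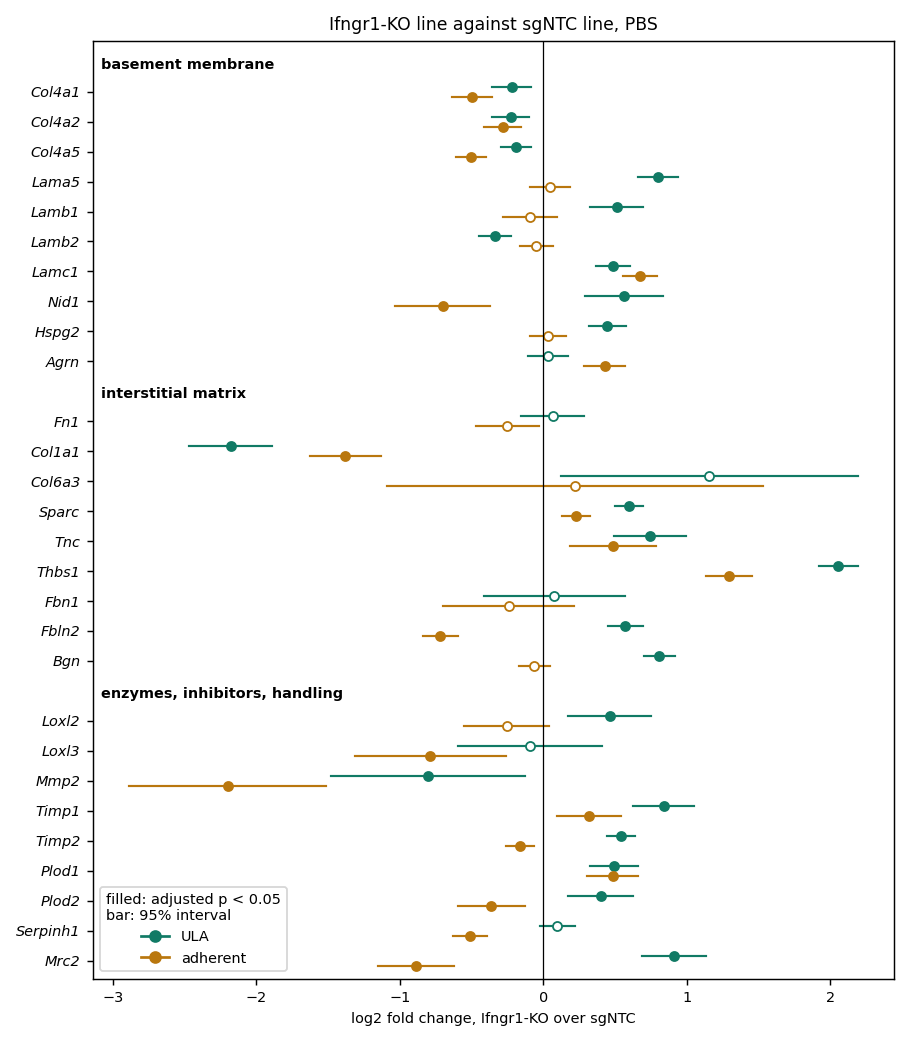
Log2 fold change of Ifngr1-KO over sgNTC cells under PBS for 28 matrix genes by role (3 with a group at 0 counts are left out), in ULA and adherent cells; bars are 95% intervals and filled points passed an adjusted p under 0.05. Mrc2, Nid1 and Fbln2 lie right of 0 in ULA and left of 0 in adherent cells, while Col1a1 lies left and Thbs1 right of 0 in both.

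With IFN-gamma, 27 of 31 tested matrix genes were called between the lines in ULA cells (19 higher, 8 lower). There 54.8% of all genes were called (27.6% higher, 27.2% lower). In adherent cells 20 of 31 were called (9 higher, 11 lower), where 43.3% of all genes were (20.2% higher, 23.1% lower). The 31 again include Col3a1, Col5a1 and Col5a2, which passed the filter through sgNTC libraries. They also include Col6a3, which may have passed through the libraries where it is higher. Any call of these genes, among them Col5a2 as lower and Col6a3 as higher in adherent cells, is a description, with no test. The Col6a3 call was lost without adherent Ifngr1-KO replicate 3 (1.63). Thbs1 was higher in Ifngr1-KO cells by 2.21 ± 0.07 in ULA and 1.45 ± 0.08 in adherent cells with IFN-gamma, and Col1a1 was lower by 1.82 ± 0.14 and 1.02 ± 0.12. Lama5, not called between adherent lines under PBS, was higher in Ifngr1-KO cells by 0.29 ± 0.07 in adherent cells with IFN-gamma (adjusted p = 0.000657). The test of whether IFN-gamma acted differently in the adherent lines called 0 of 31 matrix genes in edgeR, so a call beside a non-call shows no such difference for Lama5.

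IFN-gamma, which signals through Ifngr1, was compared with PBS within each line and culture. In ULA sgNTC cells 5 of 31 tested matrix genes were called, 1 higher and 4 lower, where 2.05% of all tested genes were called (1.31% higher, 0.739% lower). In adherent sgNTC cells 1 of 31 was called, lower, where 0.315% of all genes were (0.294% higher, 0.0205% lower). In Ifngr1-KO cells edgeR called 0 of 31 in ULA (0% of all genes) and 0 of 31 in adherent cells (0.00684% of all genes). At an unadjusted p under 0.05 there were 3 and 6 of 31, against 1103 and 1215 of all 14622 genes. DESeq2 called 0 of 31 in ULA and 1 of 31 in adherent Ifngr1-KO cells, against 1 and 25 of all genes.

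The 4 genes that fell in ULA sgNTC cells were Col4a1, Col4a2, Lamb1 and Fbln2, of which 3 encode basement membrane chains. Col4a1 stood at 78.3, 73.5 and 79.3 CPM with IFN-gamma and 85.7, 98.9 and 93.0 CPM with PBS, and fell by 0.26 ± 0.07 on the log2 scale (adjusted p = 0.025). Col4a2 stood at 104, 94.6 and 98.5 CPM with IFN-gamma and 111, 130 and 114 CPM with PBS, and fell by 0.26 ± 0.06 (adjusted p = 0.0187). Lamb1 stood at 181, 150 and 180 CPM with IFN-gamma and 190, 253 and 214 CPM with PBS, and fell by 0.36 ± 0.09 (adjusted p = 0.0321). Treated and PBS libraries did not overlap for these 3 genes, though the gap was narrow beside the spread within a group.

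Fbln2 stood at 353, 314 and 341 CPM with IFN-gamma and 376, 438 and 375 CPM with PBS, and fell by 0.24 ± 0.06 (adjusted p = 0.025). Fbn1 rose by 0.97 ± 0.23 (adjusted p = 0.0162), at 3.22, 2.25 and 3.66 CPM with IFN-gamma and 1.48, 1.95 and 1.21 CPM with PBS. None of the 5 calls held when each library was left out in turn. The highest adjusted p was 0.249 for Col4a1, 0.27 for Col4a2, 0.233 for Lamb1 and 0.335 for Fbln2, each without ULA sgNTC PBS replicate 2. For Fbn1 it was 0.118, without ULA sgNTC PBS replicate 3. Without that PBS replicate 2 the log2 fold changes were -0.21 for Col4a1, -0.19 for Col4a2, -0.25 for Lamb1 and -0.16 for Fbln2, and 1 of 31 genes was called. The calls of Lamb1 (adjusted p = 0.278) and Fbln2 (adjusted p = 0.0632) were also lost when only the compared groups were fitted.

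Mrc2 fell in adherent sgNTC cells, at 6.83, 4.79 and 4.99 CPM with IFN-gamma and 8.61, 8.44 and 7.88 CPM with PBS, by 0.58 ± 0.13 (adjusted p = 0.0278). The call was lost without any of 5 libraries of the 6, the highest adjusted p being 0.269 without IFN-gamma replicate 2 (-0.48), and when only the compared groups were fitted (adjusted p = 0.0586). Col4a2, with a change of -0.22 ± 0.06 in adherent sgNTC cells, was not called (adjusted p = 0.249).

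Whether the response differed between the lines was tested as the Ifngr1-KO effect of IFN-gamma less the sgNTC one. In ULA 2 of 31 tested genes were called, Col4a1 (0.37 ± 0.09, adjusted p = 0.0408) and Col4a2 (0.40 ± 0.09, adjusted p = 0.0175), where 1.33% of all genes were called (0.54% higher, 0.793% lower). In Ifngr1-KO cells their own changes with IFN-gamma were 0.10 ± 0.07 for Col4a1 and 0.14 ± 0.06 for Col4a2 in ULA, neither called. The Col4a1 call was lost without any of 9 single libraries, the highest adjusted p being 0.135 without ULA sgNTC PBS replicate 2. The Col4a2 call was lost without any of 3, the highest being 0.086 without the same library. In adherent cells 0 of 31 were called by edgeR for this difference (0.13% of all genes, 0.0342% higher and 0.0957% lower). DESeq2 called 1 of 31, against 96 of all genes. At an unadjusted p under 0.05 in edgeR there were 10 of 31, against 1630 of all 14622 genes. For the sgNTC response in ULA less the adherent one 0 of 31 were called by edgeR (0.0479% of all genes). DESeq2 called 0 of 31, against 9 of all genes. Here 3 of 31 were at an unadjusted p under 0.05 in edgeR, against 781 of all 14622 genes.

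**Figure D5:**
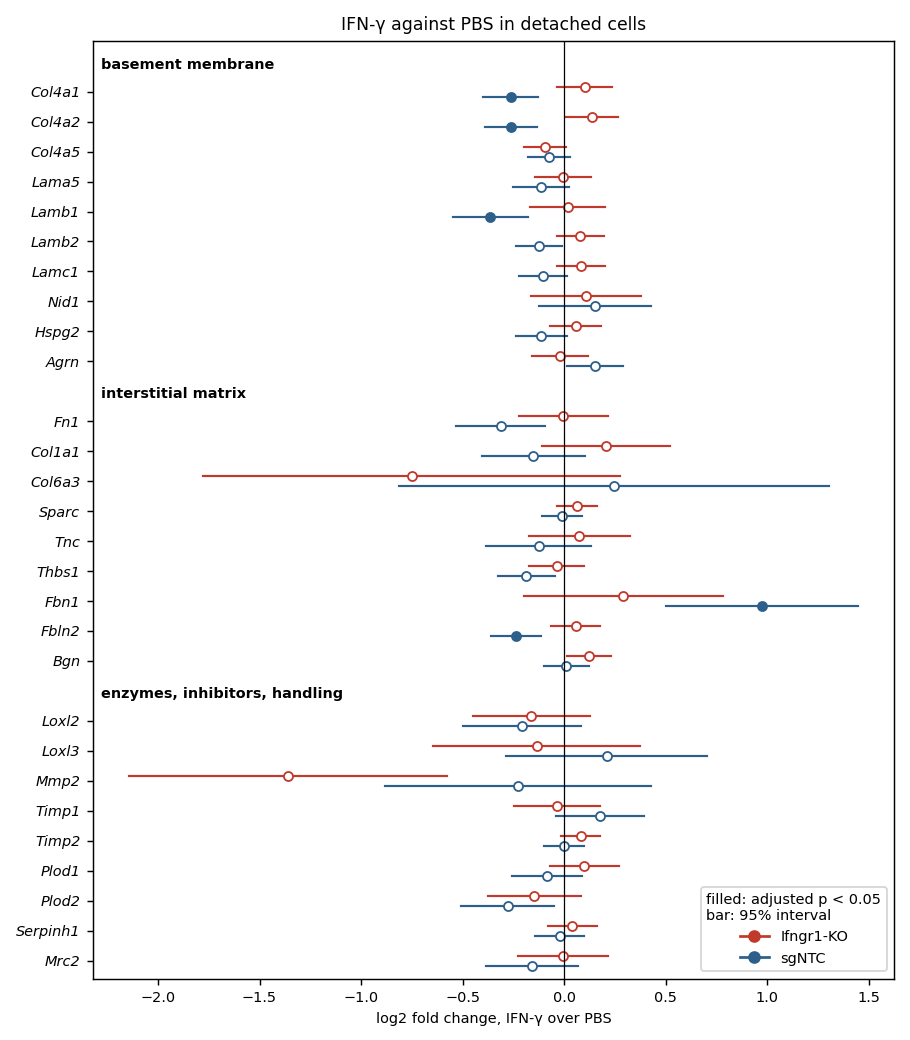
Log2 fold change of IFN-gamma over PBS in ULA cells for 28 matrix genes by role (3 with a group at 0 counts are left out), in Ifngr1-KO and sgNTC cells; bars are 95% intervals and filled points passed an adjusted p under 0.05. The only filled points are Col4a1, Col4a2, Lamb1, Fbln2 and Fbn1 in sgNTC cells, and most intervals reach 0.

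Other matrix genes were counted in the same comparisons, and the shares of all genes are those of the 14622 tested. They were named by rank within each comparison, so a gene given for a single line or culture may have differed in the other too. On detachment under PBS 29.6% of all genes rose and 31.1% fell in Ifngr1-KO cells, and 32.5% rose and 32.1% fell in sgNTC cells. Of 16 other basement membrane genes tested, 8 rose (50%) and 1 fell (6.25%) in Ifngr1-KO cells, and 7 rose (43.8%) and 4 fell (25%) in sgNTC cells. Ntn4, a netrin that binds laminin, rose by 1.78 ± 0.07 in Ifngr1-KO and 2.13 ± 0.07 in sgNTC cells, and Dag1, the laminin receptor dystroglycan, by 1.21 ± 0.05 and 0.78 ± 0.05. Pxdn, the peroxidase that cross-links collagen IV, rose by 1.60 ± 0.13 in Ifngr1-KO cells. Tinagl1, a matrix protein related to a tubular basement membrane antigen, stood at 158.5 CPM in ULA and 324.7 CPM in adherent sgNTC cells, and fell by 1.04 ± 0.07. It was 1 of the 4 genes of this list that fell past 2-fold in sgNTC cells.

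Of 16 other interstitial genes tested, 7 rose (43.8%) and 1 fell (6.25%) on detachment in Ifngr1-KO cells, and 7 rose (43.8%) and 3 fell (18.8%) in sgNTC cells. Tnxb, a tenascin, rose by 2.26 ± 0.07 in Ifngr1-KO and by 3.01 ± 0.07 in sgNTC cells, and Ecm1, a secreted glycoprotein, by 1.76 ± 0.07 and 1.38 ± 0.08. Dcn, the proteoglycan decorin, rose by 2.48 ± 0.11 in Ifngr1-KO cells, and Matn2, a matrilin, by 2.84 ± 0.20 in sgNTC cells. Of 35 other enzymes and collagen-handling genes, 21 rose (60%) and 8 fell (22.9%) in Ifngr1-KO cells, and 16 rose (45.7%) and 9 fell (25.7%) in sgNTC cells. Adamts9, a proteoglycan-cutting protease, rose by 2.65 ± 0.07 in Ifngr1-KO and 1.81 ± 0.07 in sgNTC cells, and Pcolce, an enhancer of procollagen processing, by 1.05 ± 0.05 in each line. Mmp10, a stromelysin, stood at 560 CPM in ULA and 52.1 CPM in adherent Ifngr1-KO cells (3.43 ± 0.09). Mmp11, another stromelysin, rose by 1.56 ± 0.08 in sgNTC cells, and averaged 40.7 CPM in ULA and 18.1 CPM in adherent Ifngr1-KO cells.

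Of 16 TGF-beta pathway genes tested, 9 rose (56.2%) and 3 fell (18.8%) on detachment in Ifngr1-KO cells, and 10 rose (62.5%) and 4 fell (25%) in sgNTC cells. The ligand gene Tgfb3 rose by 2.44 ± 0.08 in Ifngr1-KO and 1.78 ± 0.08 in sgNTC cells. Ltbp3 (1.07 ± 0.07), which binds latent TGF-beta, and the ligand gene Tgfb1 (1.04 ± 0.07) rose in Ifngr1-KO cells. In sgNTC cells Ltbp4 rose by 1.33 ± 0.08 and the receptor gene Tgfbr1 by 0.92 ± 0.06. Of 10 tested genes for the export of large collagen cargo from the endoplasmic reticulum, 2 rose (20%) and 8 fell (80%) in Ifngr1-KO cells, and 2 rose (20%) and 7 fell (70%) in sgNTC cells. Sec24d, a coat protein of transport vesicles that carry procollagen, stood at 57.1 CPM in ULA and 205.5 CPM in adherent Ifngr1-KO cells, and fell by 1.85 ± 0.07 (adjusted p = 1.63e-22). For sgNTC cells the values were 23.8 CPM in ULA and 168.3 CPM in adherent cells, and fell by 2.82 ± 0.07 (adjusted p = 2.99e-27). Sec23a and Sec31a, of the same coat, fell by 0.78 ± 0.05 and 0.57 ± 0.05 in Ifngr1-KO and by 0.97 ± 0.05 and 0.84 ± 0.05 in sgNTC cells.

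Between the lines under PBS, 24.5% of all genes were higher and 25.6% lower in ULA Ifngr1-KO cells, and 20.1% higher and 23.9% lower in adherent ones. Of the 16 other basement membrane genes, 4 were higher (25%) and 5 lower (31.2%) in ULA, shares near those of all genes, and 3 higher (18.8%) and 7 lower (43.8%) in adherent cells. Pxdn stood at 32.0 CPM in ULA Ifngr1-KO and 2.04 CPM in ULA sgNTC cells (3.98 ± 0.15), and at 10.5 CPM in adherent Ifngr1-KO and 0.806 CPM in adherent sgNTC cells (3.75 ± 0.21). Npnt, a basement membrane ligand of integrins, was higher in Ifngr1-KO cells by 2.80 ± 0.09 in ULA and 2.69 ± 0.10 in adherent cells. Tinagl1 was higher by 0.91 ± 0.07 in ULA, and Dag1 was lower by 0.68 ± 0.05 in adherent Ifngr1-KO cells.

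Of the 16 other interstitial genes, 4 were higher (25%) and 5 lower (31.2%) in ULA Ifngr1-KO cells, again near the shares of all genes, and 5 higher (31.2%) and 8 lower (50%) in adherent ones. Matn2 was lower by 4.13 ± 0.23 in ULA and Dcn by 1.47 ± 0.11 in adherent Ifngr1-KO cells. Ecm1 was higher by 0.89 ± 0.07 in ULA, Tnxb by 0.66 ± 0.07 in adherent cells, and Efemp2, a fibulin of elastic fibres, by 0.53 ± 0.06 in ULA and 0.63 ± 0.07 in adherent cells. Of the 35 other enzymes and collagen-handling genes, 13 were higher (37.1%) and 6 lower (17.1%) in ULA, and 12 higher (34.3%) and 9 lower (25.7%) in adherent cells. P3h2, a prolyl hydroxylase of collagen IV, was higher in Ifngr1-KO cells by 2.12 ± 0.08 in ULA and by 1.82 ± 0.08 in adherent cells. Adamts9 was lower by 1.24 ± 0.07 in ULA and 2.08 ± 0.07 in adherent cells, and Mmp11 by 1.33 ± 0.08 and 0.93 ± 0.08.

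Of the 16 TGF-beta pathway genes, 2 were higher (12.5%) and 7 lower (43.8%) in ULA Ifngr1-KO cells, and 2 higher (12.5%) and 10 lower (62.5%) in adherent ones. Ltbp1, which binds latent TGF-beta, was higher in both cultures, by 1.35 ± 0.06 in ULA and 0.77 ± 0.06 in adherent cells. Ltbp4 (-0.92 ± 0.08) and the inhibitory Smad gene Smad6 (-1.29 ± 0.14) were lower in ULA, and Tgfb3 (-1.11 ± 0.09) and Smad4 (-0.53 ± 0.06) in adherent Ifngr1-KO cells. Of the 10 collagen export genes, 6 were higher (60%) and 2 lower (20%) in ULA, and 3 higher (30%) and 1 lower (10%) in adherent cells. Sec24d was higher by 1.26 ± 0.07 in ULA and 0.29 ± 0.06 in adherent cells, and Sec23a by 0.43 ± 0.05 and 0.24 ± 0.05. Klhl12, a ubiquitin ligase adaptor for that coat, was lower by 0.66 ± 0.07 in ULA, and the transcription factor gene Creb3l2 by 0.57 ± 0.06 in adherent Ifngr1-KO cells.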

How the data were processed

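Poly-A RNA of 24 libraries (8 groups of 3) was measured. Per the submitters' processing notes, Trimmomatic, HISAT2, SAMtools, featureCounts of Subread 2.1.1 and DESeq2 were used with GRCm38 (mm10). The deposited files hold raw counts per gene. Reads on exons were counted with featureCounts (v2.1.1), per the file headers, in paired mode without strand and without multi-mapping reads, each mate on its own, so overlapping genes are less certain and counts are not independent molecules.

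The 39 genes and all lists were chosen with earlier results of these data known. Positions come from the files and matched GENCODE M21 for 38 of the 39 genes. In edgeR 4.0.16 (R 4.3.3), filterByExpr (minimum count 10) kept 14622 of 31062 features. One quasi-likelihood model was fitted to all 24 libraries with 8 group means, TMM factors (0.958 to 1.05), robust dispersion (common coefficient of variation 0.0771) and 16 residual degrees of freedom. Tests were two-sided, with Benjamini-Hochberg adjustment within each comparison. Errors after ± are the standard error of the log2 fold change unless SD is stated. CPM uses TMM-adjusted totals and TPM divides counts by exon length. A group at 0 was given a floor of 3 counts over the group.

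Same-numbered replicates are biological replicates in the labels. Whether they share a culture day is not given in the sources used here, so p-values measure the spread between these samples. Other genes were named as the 3 with the smallest adjusted p per list among called genes with at least 5 CPM in 1 compared group, in each PBS comparison of cultures or lines. Alternatives were DESeq2 (1.42.0), its size factors, library totals, no filter, only the compared groups, a replicate block, halved counts and leaving out each library. Leaving out both libraries that stood apart was added after seeing the data.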

Additional observations from a re-analysis of the deposited data

Results flagged for a closer look

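The response to detachment differed between the lines, by the test of the difference itself (edgeR's quasi-likelihood test, Benjamini-Hochberg adjusted p under 0.05), for the genes below. Values are the Ifngr1-KO log2 change on detachment less the sgNTC one, first under PBS and then with IFN-gamma.

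Among basement membrane genes it was 0.75 and 0.62 for Lama5, 0.61 and 0.74 for Lamb1, -0.29 and -0.24 for Lamb2, and 1.27 and 1.87 for Nid1. It was 0.41 and 0.30 for Hspg2, -0.40 and -0.67 for Agrn, 0.28 and 0.29 for Col4a1, and 0.31 and 0.22 for Col4a5. Among interstitial genes it was -0.80 and -0.79 for Col1a1, 0.37 and 0.48 for Sparc, 0.76 and 0.76 for Thbs1, 1.29 and 1.26 for Fbln2, and 0.87 and 0.83 for Bgn. Among enzymes, inhibitors and collagen-handling genes it was 0.72 and 0.65 for Loxl2, 0.52 and 0.54 for Timp1, 0.70 and 0.72 for Timp2, 0.76 and 0.92 for Plod2, 0.61 and 0.71 for Serpinh1, and 1.80 and 1.28 for Mrc2. Mmp2 was called under PBS only, at 1.39. Under PBS, leaving out 1 library lost the call of Mmp2 (highest adjusted p 0.0811, without adherent Ifngr1-KO replicate 1). It also lost those of Timp1 (0.0618, without adherent sgNTC replicate 2) and Col4a1 (highest 0.102, without ULA sgNTC replicate 1). With IFN-gamma, leaving out 1 library lost the call of Col4a1 (highest adjusted p 0.0873, without adherent sgNTC replicate 2), Col4a5 (0.062, without ULA sgNTC replicate 2), Lamb2 (0.0731, without adherent sgNTC replicate 2) and Loxl2 (0.0502, without adherent sgNTC replicate 2). With IFN-gamma, library totals in place of TMM also ended the calls of Hspg2 (0.18, adjusted p = 0.101), Col4a5 (0.10, adjusted p = 0.32) and Col4a1 (0.16, adjusted p = 0.165). No filter on low counts ended that of Lamb2 (-0.20, adjusted p = 0.0755), and fitting only the compared groups that of Loxl2 (0.66, adjusted p = 0.0581). Under PBS, library totals ended the call of Col4a1 (0.18, adjusted p = 0.131).

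The response to IFN-gamma in ULA differed between the lines for Col4a1, by 0.37, and for Col4a2, by 0.40 (Ifngr1-KO minus sgNTC). Both calls were lost when certain single libraries were left out. The highest adjusted p was 0.135 for Col4a1 and 0.086 for Col4a2, each without ULA sgNTC PBS replicate 2. Groups held 3 libraries each, so single libraries were not tested as outliers.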

How the results depend on the processing

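Of 241 calls over the 17 comparisons, 205 held under every alternative except the 1 added after seeing the data, 33 were lost without at least 1 single library, and none of the 241 changed direction. Calls lost were 2 with DESeq2's size factors, 7 with library totals, 8 with no filter, 2 with DESeq2, 10 when only the compared groups were fitted, 0 with halved counts, and 6 without both libraries that stood apart.

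Counts of called matrix genes moved past 1.5 times only where IFN-gamma was compared, and the cause was not tested. In adherent sgNTC cells the count was 0 with only the compared groups, in place of 1 (all genes 104, in place of 46). In ULA sgNTC cells it was 9 with no filter and 3 with only the compared groups, in place of 5 (all genes 652 and 289, in place of 300). In adherent Ifngr1-KO cells it was 1 with no filter, with DESeq2 and without both libraries, in place of 0. Over all genes no filter gave 31 and DESeq2 25 there, in place of 1. For the difference between the lines the matrix count was 5, 1 and 1 in adherent cells under these settings, in place of 0. Over all genes no filter gave 180 and DESeq2 96, in place of 19. In ULA the matrix count was 5 with no filter and 1 without both libraries, in place of 2. Over all genes no filter gave 524 there, in place of 195.

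Leaving out each library gave, for ULA against adherent cells, 26 to 27 (Ifngr1-KO) and 25 to 26 (sgNTC) with PBS, and 23 to 25 and 23 to 26 with IFN-gamma. For Ifngr1-KO against sgNTC it gave 21 to 25 (ULA) and 20 to 23 (adherent) with PBS, and 24 to 28 and 19 to 21 with IFN-gamma. For IFN-gamma against PBS it gave 0 to 0 in both Ifngr1-KO cultures, 1 to 5 in ULA sgNTC and 0 to 1 in adherent sgNTC cells. For the difference in detachment it gave 17 to 21 with PBS and 16 to 20 with IFN-gamma. For the difference in IFN-gamma response it gave 0 to 4 (lines, ULA), 0 to 1 (lines, adherent) and 0 to 0 (cultures, sgNTC).

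Library totals shifted the median of all genes by 0.12 for detachment in sgNTC cells with IFN-gamma. Same-numbered replicates of compared groups had correlated deviations of -0.15 to 0.12, so no pairing by number was detected. A fit with the replicate block kept 241 of the 241 calls. Col3a1, Col5a1, Col5a2 and Col6a3 lie near the depth limit.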
